A study of Caenorhabditis elegans with 30 samples.

Results

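The ethanol effect that remained in wild-type worms 6 h after removal from ethanol was described across all genes. Worms of the wild-type strain N2 of Caenorhabditis elegans, a self-fertile nematode, were exposed as larvae of the last stage to 400 mM ethanol in agar plates for 18 h, over which they became first-day adults. They were then kept on ethanol-free plates with the food strain OP50 for 6 h. The controls were N2 worms handled in the same way at 0 mM ethanol, so both groups went through the transfer and carried no mutation or transgene. Whole worms of a plate were pooled for each of 5 replicates per group, collected on different days with the control and the ethanol plates in parallel. The comparison used 10 of the 30 RNA libraries of the series and 15923 of the 46739 genes of its count table, those with a mean of at least 1 count over the 10 libraries. The effect at harvest immediately after exposure was measured in 10 other wild-type libraries. For named genes whose effect at 6 h differed from it, either that effect or only the difference is given, after the gene groups.

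Worms oxidize ethanol with alcohol and aldehyde dehydrogenases to acetate, which enters metabolism as acetyl-CoA. The intestine is the main organ of digestion, fat storage, detoxification and defense against microbes, and in adults it also makes the yolk that is taken up by oocytes. It secretes proteases, saposin-like peptides and lysozymes into the gut, which break up the bacteria that the worm eats. A large share of the RNA of an adult comes from its germline, in which ribosomes, proteasomes and regulators of translation are abundant.

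The total count of a library was 16511768 to 23505210 at 400 mM (median 18029409), against 13790931 to 17328021 at 0 mM (median 16139441). Levels are given as CPM, counts divided by the TMM-scaled total of the library and set to a common size. Libraries with the same replicate number deviated together from their group means, with correlations of 0.31 to 0.64 across 7985 genes, and each library at 400 mM correlated best with the library at 0 mM of its own number. Each fold change therefore compares 400 mM with 0 mM within the 5 pairs. Ribosomal RNA took 17.9% of the counts in replicate 1 at 400 mM and 5.75% in replicate 1 at 0 mM, and 0.40% to 1.35% in the other libraries. Replicate 5 at 0 mM stood apart in sperm genes, as described with those genes.

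At 6 h, 1679 genes differed between 400 mM and 0 mM in the quasi-likelihood test of edgeR (adjusted p below 0.05), 10.5% of those tested. Of these, 934 rose with ethanol (5.87%) and 745 fell (4.68%). Without the pairing, 722 genes passed the test (4.53%), of which 429 rose (2.69%) and 293 fell (1.84%). These shares over all genes, with and without the pairing, are those to set beside the counts of each gene list. Both fits called 425 genes as higher and 291 as lower. Leaving out a pair lowered the count most for replicate 5 (887 genes, 574 higher and 313 lower), replicate 3 (1044 genes) and replicate 4 (1093 genes). At an unadjusted p under 0.05, 3975 genes differed. The rises were larger than the falls, with a median log2 fold change of 0.44 among the genes that rose and −0.18 among those that fell. Changes under 1.25-fold made up 27.7% of the rises and 74.9% of the falls. The median over all genes was 0.01. Of the called genes, 69 had 3 counts or fewer in every library of one group, and none of these is described singly.

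**Figure D1:**
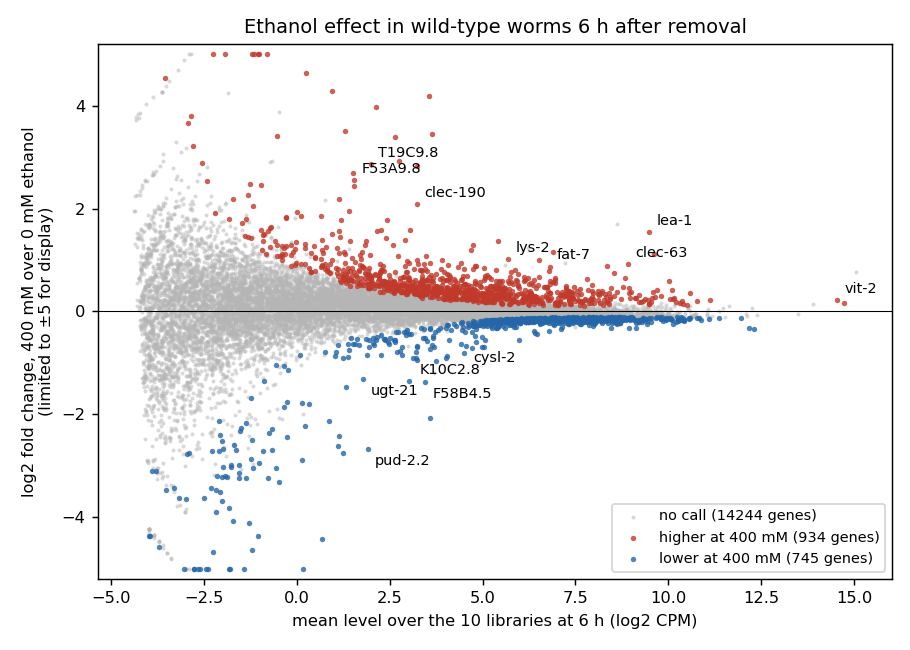
Each point is 1 of the 15923 genes, with its mean level over the 10 libraries on the x axis (log2 CPM) and its log2 fold change, 400 mM over 0 mM, on the y axis. The 934 genes that rose (median 0.44) lie further from the zero line than the 745 that fell (median −0.18).

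Among the genes with the smallest p were lea-1, clec-62, clec-63, clec-190, cpr-1, cpr-4 and ftn-2, which rose, and cysl-2, prmt-1, eif-2gamma and fars-1, which fell. Leading genes were named by p or fold only if they also passed without the pairing. They also had to change in the same direction in all pairs, so that agreement was required by the choice. The gene lea-1 (WBGene00002263, chromosome V, 10011923 to 10028168 in WBcel235), which overlaps acl-2, encodes a late embryogenesis abundant protein of the kind that protects worms from drying. Its level was 1076, 1124, 834, 1120.2 and 1166 CPM at 400 mM, against 387, 353, 345, 371 and 356 CPM at 0 mM. The groups lay far apart, and replicate 3 was the lowest of its group (log2 fold change 1.55 ± 0.0803 SE, edgeR adjusted p = 6.07e-10). Y119D3B.21 (WBGene00022497, chromosome III, 1215000 to 1215200) had the smallest p of all genes. It was measured at 111, 137, 113, 125 and 122.9 CPM at 400 mM, against 61.9, 66.9, 54.5, 58.6 and 63.3 CPM at 0 mM. The difference was about the same in all 5 pairs, without overlap between the groups (log2 fold change 1.00 ± 0.0447 SE, edgeR adjusted p = 8.46e-11).

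Of the C-type lectins, proteins that bind carbohydrates and are often secreted by the intestine, 3 were among the leading genes. The neighbors clec-62 (WBGene00009393, chromosome II, 12893062 to 12895128) and clec-63 (WBGene00009394, chromosome II, 12895638 to 12897446) had levels of 44.5, 42.6, 34.4, 29.4 and 27.7 CPM for clec-62 and 725, 732, 609, 537 and 523 CPM for clec-63 at 400 mM. At 0 mM, the levels were 17.6, 20.3, 16.9, 12.6 and 10.6 CPM for clec-62 and 373, 419, 343, 263 and 269.7 CPM for clec-63. Both were lower in replicates 4 and 5 than in replicates 1 to 3 in either group, and both rose in each pair (clec-62, log2 fold change 1.20 ± 0.0828 SE, edgeR adjusted p = 2.22e-08; clec-63, log2 fold change 0.92 ± 0.0543 SE, edgeR adjusted p = 4.33e-09). Expression of clec-190 (WBGene00010953, chromosome IV, 15124931 to 15126121) was 13.8, 19.4, 13.2, 14.7 and 15.1 CPM at 400 mM, against 2.65, 4.05, 5.39, 2.87 and 3.13 CPM at 0 mM, with all libraries at 400 mM above those at 0 mM (log2 fold change 2.09 ± 0.168 SE, edgeR adjusted p = 2.51e-07).

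The ferritin gene ftn-2 (WBGene00001501, chromosome I, 3680180 to 3680927), whose product stores iron, had 121, 131, 138, 141 and 149 CPM at 400 mM, against 83.3, 98.6, 79.1, 91.9 and 100.6 CPM at 0 mM. The groups did not overlap (log2 fold change 0.59 ± 0.0449 SE, edgeR adjusted p = 1.27e-07). A gene of unknown role, F53A9.8 (WBGene00018731, chromosome X, 8718641 to 8718904), was low in both groups, at 4.54, 5.08, 5.65, 4.53 and 5.26 CPM at 400 mM, against 1.146, 0.762, 0.852, 0.855 and 0.640 CPM at 0 mM. It rose in every pair (log2 fold change 2.55 ± 0.166 SE, edgeR adjusted p = 9.87e-09). The gene dod-23 (WBGene00009898, chromosome II, 8398161 to 8399164), named for acting downstream of the insulin-regulated factor DAF-16, had 71.8, 81.9, 62.4, 65.4 and 60.2 CPM at 400 mM, against 43.2, 46.7, 35.5, 35.9 and 39.8 CPM at 0 mM (log2 fold change 0.76 ± 0.0475 SE, edgeR adjusted p = 4.94e-09).

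In a pair of genes with large changes, the levels at 400 mM were highest in replicates 1 to 3. T19C9.8 (WBGene00011844, chromosome V, 17239097 to 17240721), which overlaps T19C9.10, had 12.4, 12.3, 6.49, 1.77 and 2.13 CPM at 400 mM, against 1.09, 2.46, 0.355, 0.549 and 0.320 CPM at 0 mM. Y37H2A.14 (WBGene00045416, chromosome V, 18143745 to 18144720) had 24.8, 35.4, 18.1, 1.93 and 3.55 CPM at 400 mM, against 2.29, 3.81, 0.923, 1.22 and 1.79 CPM at 0 mM. In both genes the level was higher at 400 mM in all 5 pairs, and replicates 4 and 5 at 400 mM lay within the range of the 0 mM libraries (T19C9.8, log2 fold change 2.86 ± 0.331 SE, edgeR adjusted p = 1.52e-05; Y37H2A.14, log2 fold change 2.82 ± 0.377 SE, edgeR adjusted p = 7.35e-05). The beta-tubulin gene tbb-6 (WBGene00006539, chromosome V, 12261531 to 12263368) showed 11.7, 12.4, 8.55, 3.59 and 5.68 CPM at 400 mM, against 2.65, 2.76, 1.35, 1.95 and 2.88 CPM at 0 mM, with no overlap (log2 fold change 1.78 ± 0.207 SE, edgeR adjusted p = 1.55e-05).

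A copy of pud-2.2, of the pud genes named for proteins upregulated in daf-2 mutants, was among the genes that fell. This copy, with the identifier WBGene00017500 (chromosome V, 2323014 to 2323524), was at 0.439, 0.467, 1.92, 0.663 and 1.59 CPM at 400 mM, against 3.74, 3.99, 13.1, 4.94 and 6.72 CPM at 0 mM. Replicate 3 had the highest level in either group, and the groups did not overlap (log2 fold change −2.67 ± 0.216 SE, edgeR adjusted p = 2.51e-07). Copies of these genes are near-identical, and reads that fit several copies were not counted, so the level of a single copy is uncertain. An enzyme of the cysteine synthase family that acts in cyanide detoxification is encoded by cysl-2 (WBGene00010759, chromosome II, 14492874 to 14494451), whose span overlaps that of vnut-1. It was found at 16.7, 16.7, 17.7, 18.4 and 20.0 CPM at 400 mM, against 28.95, 28.2, 31.6, 27.3 and 27.4 CPM at 0 mM. All 5 libraries at 400 mM were below all libraries at 0 mM (log2 fold change −0.68 ± 0.0728 SE, edgeR adjusted p = 7.30e-06).

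F58B4.5 (WBGene00010238, chromosome V, 10932693 to 10934245), which overlaps F17C11.12, fell to 5.42, 8.59, 8.11, 3.53 and 5.43 CPM at 400 mM, against 13.8, 19.2, 13.7, 16.4 and 16.2 CPM at 0 mM (log2 fold change −1.38 ± 0.1501 SE, edgeR adjusted p = 8.12e-06). K10C2.8 (WBGene00045265, chromosome X, 6436440 to 6437645) likewise had 4.83, 6.54, 6.78, 6.52 and 5.51 CPM at 400 mM, against 9.29, 10.3, 13.4, 10.9 and 12.6 CPM at 0 mM (log2 fold change −0.91 ± 0.0965 SE, edgeR adjusted p = 6.28e-06). The groups overlapped in neither gene. In F19B2.5 (WBGene00008944, chromosome V, 20162615 to 20164165), the levels were 11.6, 16.8, 14.2, 8.56 and 8.10 CPM at 400 mM, against 14.8, 20.9, 17.1, 27.8 and 26.4 CPM at 0 mM, and the difference was larger in replicates 4 and 5 than in replicates 1 to 3 (log2 fold change −0.87 ± 0.189 SE, edgeR adjusted p = 0.00544). Larger differences in replicates 4 and 5 were also found in pmp-4 (WBGene00004061, chromosome IV, 17402455 to 17405630), which overlaps T02D1.4 and encodes an ABC transporter of the peroxisomal membrane, with 8.05, 8.70, 9.34, 15.8 and 11.4 CPM at 400 mM, against 11.7, 12.5, 9.58, 37.8 and 37.8 CPM at 0 mM (log2 fold change −0.90 ± 0.166 SE, edgeR adjusted p = 0.00141). In both genes the groups overlapped. In a fit of the 10 libraries at 6 h alone without the pairing, the edgeR adjusted p of pmp-4 was 0.128.

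The other leading genes that fell were abundant and changed by little. The arginine methyltransferase gene prmt-1 (WBGene00013766, chromosome V, 20267377 to 20269711) was at 491, 509.6, 488, 518 and 506 CPM at 400 mM, against 592, 586, 656, 645 and 648 CPM at 0 mM (log2 fold change −0.31 ± 0.0404 SE, edgeR adjusted p = 4.49e-05). The import channel of the outer mitochondrial membrane, tomm-40 (WBGene00007686, chromosome II, 8971965 to 8973566), overlaps C18E9.5 and had 154, 137, 136, 148 and 147 CPM at 400 mM, against 179, 166, 166, 174 and 175 CPM at 0 mM (log2 fold change −0.25 ± 0.0344 SE, edgeR adjusted p = 9.07e-05). The translation initiation factor eif-2gamma (WBGene00021466, chromosome I, 2313271 to 2315992) had 309, 296, 300.5, 324 and 296 CPM at 400 mM, against 359, 342, 364, 368 and 361 CPM at 0 mM (log2 fold change −0.24 ± 0.0321 SE, edgeR adjusted p = 8.70e-05). In each of these genes, all libraries at 400 mM were below all libraries at 0 mM. T26A8.4 (WBGene00020827, chromosome IV, 8428957 to 8432893) and the astacin metalloprotease gene nas-20 (WBGene00003539, chromosome V, 11470925 to 11472309) also fell in 5 of 5 pairs, with log2 fold changes of −0.31 and −0.56 (edgeR adjusted p = 1.28e-05 and 8.70e-05).

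**Figure D2:**
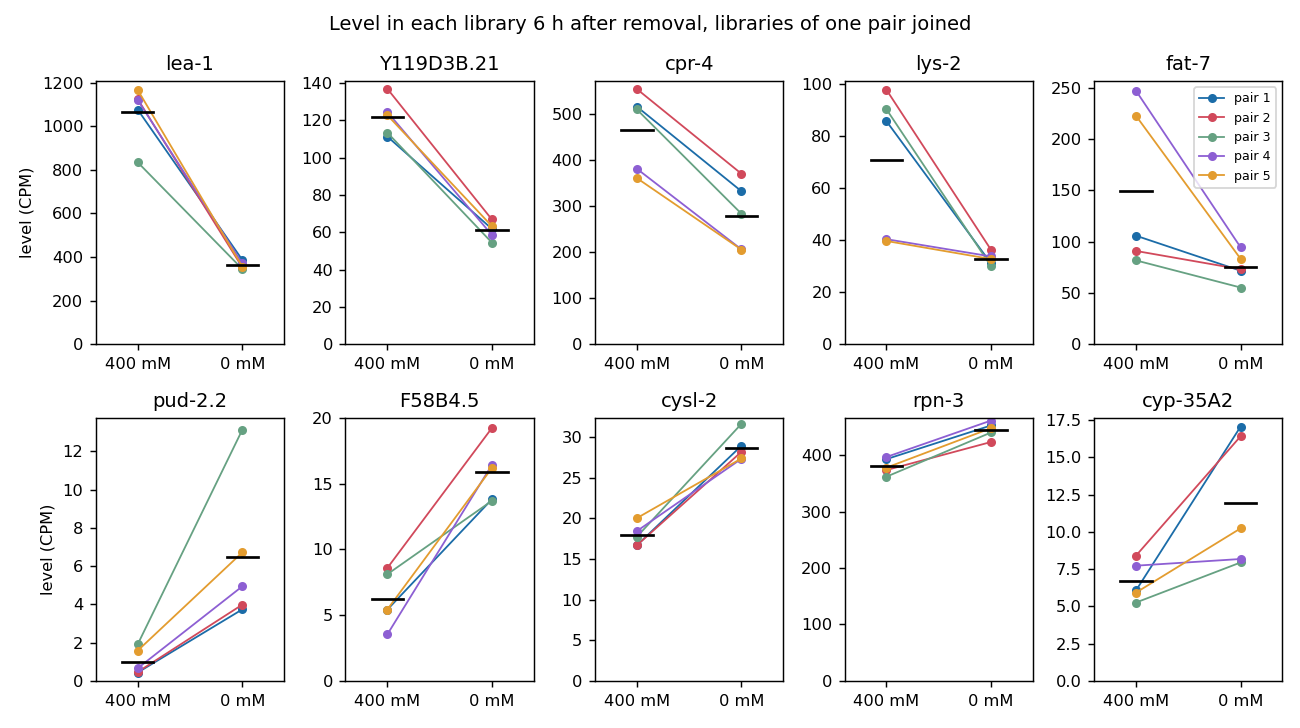
Level of 10 genes in each library (CPM, linear axis from 0), with 400 mM left of 0 mM, a line for each of the 5 pairs and a black bar at each group mean. Lines slope one way in all pairs of each gene; lys-2 differs mainly in pairs 1 to 3 and fat-7 mainly in pairs 4 and 5.

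More genes of digestion and of gut defense rose than fell. Of 47 tested genes for digestive proteases and saposins, 26 rose and 5 fell, or 17 and 1 without the pairing, and the median log2 fold change was 0.36, against 0.01 over all genes. The number that rose was 23 to 25 with any pair left out, and 3 fell without replicate 1, 2 or 5. Their summed level was 12105, 12183, 11834, 10620 and 10803 CPM at 400 mM, against 9714, 10631, 9090, 8482 and 8851 CPM at 0 mM. The sum was higher at 400 mM in every pair. Replicates 4 and 5 were lowest within each group. In bulk libraries of whole worms, more cells of a type and more RNA per cell cannot be told apart.

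The cathepsin B-like cysteine protease genes cpr-4 and cpr-1 had the smallest p of this list. For cpr-4 (WBGene00000784), the levels were 517, 555, 511, 382 and 361 CPM at 400 mM, against 332.8, 371, 284, 206 and 206 CPM at 0 mM. The groups overlapped, since replicates 4 and 5 were low in both, but each pair showed the rise (log2 fold change 0.75 ± 0.0460 SE, edgeR adjusted p = 4.94e-09). The level of cpr-1 (WBGene00000781) was 459.6, 465, 465, 358 and 358 CPM at 400 mM, against 238, 263, 211, 206 and 226 CPM at 0 mM, without overlap (log2 fold change 0.87 ± 0.0540 SE, edgeR adjusted p = 4.94e-09). In contrast, cpr-5 (WBGene00000785), a gene of the same family, was lower at 400 mM in 5 of 5 pairs, with 415, 491, 466, 411 and 406 CPM at 400 mM, against 536, 601, 487, 542 and 587 CPM at 0 mM. The difference was smallest in replicate 3 and the groups overlapped (log2 fold change −0.33 ± 0.0512 SE, edgeR adjusted p = 0.00028).

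All 11 tested aspartic proteases of the asp family, relatives of cathepsin D, passed the test, 8 of them higher and 3 lower at 400 mM. Without the pairing, 4 rose and none fell. The lysosomal protease gene asp-4 (WBGene00000217), which overlaps R12H7.4, had 383, 358, 354, 397 and 396 CPM at 400 mM, against 281, 292, 283, 295 and 314 CPM at 0 mM (log2 fold change 0.37 ± 0.0399 SE, edgeR adjusted p = 8.12e-06). For asp-3 (WBGene00000216), with 949 ± 108 CPM at 400 mM and 715 ± 107 CPM at 0 mM (SD, n = 5 each), the adjusted p of the edgeR test was 1.07e-05 with the pairing and 0.0515 without it. A much lower member, asp-17 (WBGene00012683), showed 7.29 ± 1.70 CPM at 400 mM and 2.43 ± 0.747 CPM at 0 mM (SD, n = 5 each; log2 fold change 1.58 ± 0.163 SE, edgeR adjusted p = 4.37e-06). By contrast, asp-14 (WBGene00019619) was at 11.9, 13.02, 25.5, 16.4 and 18.1 CPM at 400 mM, against 19.7, 21.99, 34.7, 23.7 and 29.7 CPM at 0 mM and asp-8 (WBGene00019105) at 6.53 ± 2.47 CPM at 400 mM and 12.1 ± 4.02 CPM at 0 mM (SD, n = 5 each). Replicate 3 of asp-8 went against the other pairs. Both genes fell with the pairing (edgeR adjusted p = 0.000106 for asp-14 and 0.0013 for asp-8) and had adjusted p of 0.0831 and 0.115 without it.

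The prolyl carboxypeptidase gene pcp-3 (WBGene00003958) was at 95.05, 76.6, 57.9, 63.8 and 79.0 CPM at 400 mM, against 45.96, 47.3, 31.3, 43.04 and 45.9 CPM at 0 mM, with no overlap (log2 fold change 0.80 ± 0.0777 SE, edgeR adjusted p = 2.30e-06). Among saposin-like proteins, small peptides that can perforate bacterial membranes, 9 of 21 tested genes rose and none fell. An example is spp-3 (WBGene00004988), with 81.7, 101.2, 90.5, 92.9 and 85.9 CPM at 400 mM, against 67.1, 76.5, 57.3, 46.03 and 46.96 CPM at 0 mM. In this gene the 0 mM libraries of replicates 4 and 5 were the lowest (log2 fold change 0.64 ± 0.0822 SE, edgeR adjusted p = 4.37e-05).

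Lysozymes, enzymes that cleave bacterial cell walls, showed 6 rises and no fall among 13 tested genes (4 and 0 without the pairing), with a median log2 fold change of 0.54. The level of lys-1 (WBGene00003090) was 153, 166, 165, 131 and 127 CPM at 400 mM, against 98.7, 111, 95.2, 97.3 and 104 CPM at 0 mM (log2 fold change 0.54 ± 0.0625 SE, edgeR adjusted p = 1.44e-05). For lys-2 (WBGene00003091), levels were 85.6, 97.7, 90.2, 40.3 and 39.6 CPM at 400 mM, against 31.001, 36.2, 29.9, 33.7 and 32.7 CPM at 0 mM. The 0 mM libraries were alike, while at 400 mM replicates 1 to 3 were more than 2-fold above replicates 4 and 5 (log2 fold change 1.02 ± 0.171 SE, edgeR adjusted p = 0.000617). For lys-4 (WBGene00003093), the groups overlapped, with 330.2, 342, 243, 216 and 219.7 CPM at 400 mM, against 239.8, 250.0, 155, 128 and 124 CPM at 0 mM. Within pairs the difference held (log2 fold change 0.63 ± 0.0568 SE, edgeR adjusted p = 9.87e-07), and without the pairing the adjusted p was 0.133.

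Of 129 tested C-type lectins, 20 rose (15.5%) and 7 fell (5.43%), or 18 and 2 without the pairing. Over all genes, 5.87% rose and 4.68% fell, so the share of lectins that fell was near that of all genes. The median was 0.09, or 0.059 without replicate 4 and 0.21 without replicate 5. Of the 129, 31 had 3 counts or fewer in every library of at least one group. This held for 25 at 400 mM and for 10 at 0 mM. The list of 41 infection response genes was taken by name from the irg, dod and pals families. It held 8 that rose (19.5%) and 1 that fell (2.44%), or 3 and 0 without the pairing, with a median of 0.24. The dod genes on it are named for acting downstream of DAF-16 and not for induction by pathogens. Without replicate 1, 5 rose, and without replicate 3, 4 rose. The median was 0.13 without replicate 3 or 4 and 0.38 without replicate 5. Expression of irg-7 (WBGene00018237), which encodes a zona pellucida-like protein of the intestine, was 676, 502, 656, 449 and 496 CPM at 400 mM, against 383, 443, 412, 259 and 285 CPM at 0 mM (log2 fold change 0.65 ± 0.106 SE, edgeR adjusted p = 0.000461). For irg-8 (WBGene00022645), it was 136, 120.5, 141, 82.2 and 90.8 CPM at 400 mM, against 71.6, 77.9, 72.4, 62.4 and 66.5 CPM at 0 mM (log2 fold change 0.68 ± 0.105 SE, edgeR adjusted p = 0.00031). In both, no library at 400 mM was as low as the highest at 0 mM. The single fall was in dod-24 (WBGene00007875, chromosome IV, 12940106 to 12941354), which the study tested for its role in ethanol withdrawal. Its level was 9.23, 10.2, 14.4, 6.07 and 6.64 CPM at 400 mM, against 13.7, 17.6, 13.3, 13.7 and 16.5 CPM at 0 mM. It was lower at 400 mM in 4 of 5 pairs and higher in replicate 3 (log2 fold change −0.73 ± 0.154 SE, edgeR adjusted p = 0.00424), and without the pairing its adjusted p was 0.139. The call held in 12 of 16 alternative settings. The study, which used DESeq2, reported that the fall of dod-24 immediately after exposure was not maintained at 6 h.

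Markers of the intestine were measured beside these groups. Of 12 tested markers, 6 rose and 1 fell (4 and 0 without the pairing). The markers that rose include cpr-1, elt-2, mtl-2, vit-2 and vit-6, which are also described singly. They are therefore no separate measure of the intestine. Their sum, most of which is yolk protein RNA, was 50801 to 60646 CPM at 400 mM (median 53510.3), against 45435 to 49787 CPM at 0 mM (median 49189). The ranges did not overlap. The part of this difference in the rises of single intestinal genes was not tested. The GATA factor elt-2 (WBGene00001250), which activates intestinal genes, had 13.4, 12.1, 8.85, 14.2 and 13.2 CPM at 400 mM, against 8.56, 9.38, 7.73, 6.90 and 8.70 CPM at 0 mM (log2 fold change 0.57 ± 0.110 SE, edgeR adjusted p = 0.00195). A proton pump subunit of the intestinal surface, vha-6 (WBGene00006915), was at 194, 183, 184, 181 and 197 CPM at 400 mM, against 155, 161, 151, 153 and 161 CPM at 0 mM (log2 fold change 0.26 ± 0.0554 SE, edgeR adjusted p = 0.00417).

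Yolk protein genes did not move together. Of 6 vit genes, vit-2 and vit-6 rose and vit-1 and vit-3 fell. With 25511 ± 1959 CPM at 400 mM and 21952 ± 996 CPM at 0 mM (SD, n = 5 each), vit-2 (WBGene00006926), which overlaps C42D8.9, was higher by 0.21 in log2 fold change (edgeR adjusted p = 0.00195). The level of vit-6 (WBGene00006930) was 28485 ± 2234 CPM at 400 mM and 25243 ± 1139.8 CPM at 0 mM (SD, n = 5 each; log2 fold change 0.17 ± 0.0477 SE, edgeR adjusted p = 0.0259). The genes vit-1 and vit-3 had 4510.0 ± 798 CPM at 400 mM and 5671 ± 654 CPM at 0 mM for vit-1 and 4125 ± 521 CPM at 400 mM and 5129 ± 330.0 CPM at 0 mM for vit-3 (SD, n = 5 each). Both fell, with log2 fold changes of −0.34 and −0.32 (edgeR adjusted p = 0.00352 and 0.00965). Without the pairing, the edgeR adjusted p was 0.102 for vit-6, 0.208 for vit-1 and 0.158 for vit-3, and that of vit-2 stayed under the threshold. The calls of vit-3 and vit-6 were also lost without replicate 2 and without replicate 1, with adjusted p of 0.0526 and 0.101 in edgeR. The sequences of vit genes are alike, so reads shared between copies were not counted.

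**Figure D3:**
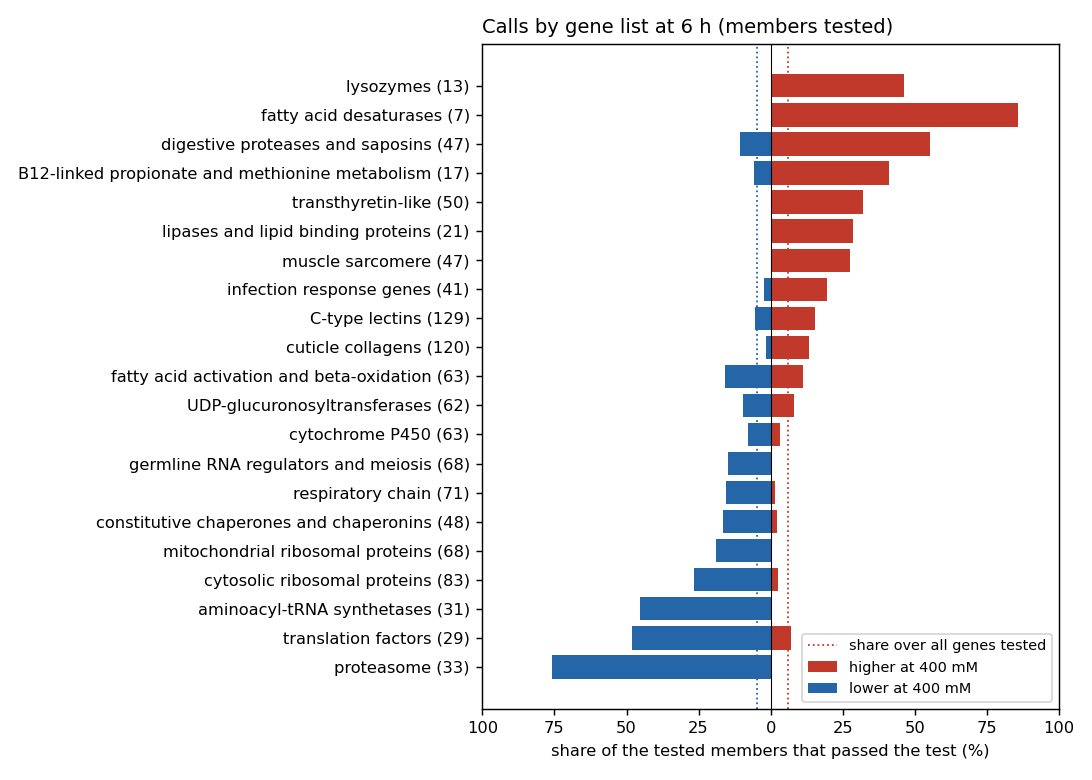
Share of the tested members of 21 gene lists that were higher (right, red) or lower (left, blue) at 400 mM than at 0 mM at 6 h, with dotted lines at the shares over all genes (5.87% and 4.68%). The number of members tested stands beside each name. The proteasome list reaches the highest share of falls, with 25 of 33, and the desaturases the highest share of rises, with 6 of 7.

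Enzymes that make unsaturated fatty acids were higher at 400 mM. Of the 7 desaturase genes, 6 rose (2 without the pairing) and fat-3 had no call. Without replicate 4 or 5, 3 rose. The delta-12 desaturase gene fat-2 (WBGene00001394) was at 497, 532, 611, 464 and 474 CPM at 400 mM, against 370.0, 391.9, 419.7, 332 and 338 CPM at 0 mM, with no overlap (log2 fold change 0.48 ± 0.0387 SE, edgeR adjusted p = 2.51e-07). The delta-9 desaturase gene fat-7 (WBGene00001399) had 106, 90.8, 81.6, 247 and 222 CPM at 400 mM, against 71.5, 73.0, 55.2, 94.3 and 83.1 CPM at 0 mM. Here replicates 4 and 5 at 400 mM were more than 2-fold above the other libraries of the group (log2 fold change 0.87 ± 0.125 SE, edgeR adjusted p = 0.000135). The same replicates led in fat-5 (WBGene00001397, overlapping twk-42), another delta-9 desaturase, with 31.8, 31.4, 26.9, 62.5 and 54.2 CPM at 400 mM, against 29.4, 29.7, 17.03, 25.2 and 26.5 CPM at 0 mM (log2 fold change 0.65 ± 0.134 SE, edgeR adjusted p = 0.00357; 0.121 without the pairing). The third delta-9 desaturase, fat-6, was at 225 ± 38.1 CPM at 400 mM and 177 ± 8.19 CPM at 0 mM (SD, n = 5 each; log2 fold change 0.33 ± 0.0803 SE, edgeR adjusted p = 0.011; 0.179 without the pairing).

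Later steps of the pathway changed less. For fat-4 (WBGene00001396), the levels were 206 ± 9.76 CPM at 400 mM and 178 ± 16.5 CPM at 0 mM (SD, n = 5 each), and for the omega-3 desaturase gene fat-1 (WBGene00001393) they were 313 ± 19.5 CPM at 400 mM and 287 ± 8.18 CPM at 0 mM (SD, n = 5 each). Their log2 fold changes were 0.21 and 0.12 (edgeR adjusted p = 0.0117 and 0.0472, or 0.0558 and 0.0972 without the pairing). The delta-6 desaturase gene fat-3 had 70.5 ± 13.5 CPM at 400 mM and 80.8 ± 21.3 CPM at 0 mM (SD, n = 5 each; log2 fold change −0.18 ± 0.0670 SE, edgeR adjusted p = 0.0884).

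Genes for lipases and lipid binding proteins showed 6 rises and no fall among 21 tested (5 and 0 without the pairing), with a median of 0.40. The median was 0.13 without replicate 5 and also among the 15 genes with a mean of at least 10 counts, and 4 genes rose without replicate 3, 4 or 5. The lipase gene lipl-5 (WBGene00022642) was at 162, 156, 141, 175 and 186 CPM at 400 mM, against 94.1, 98.0, 78.9, 51.3 and 52.97 CPM at 0 mM. The 0 mM libraries of replicates 4 and 5 were the lowest, and the groups did not overlap (log2 fold change 1.16 ± 0.141 SE, edgeR adjusted p = 2.59e-05). The fatty acid binding protein gene lbp-6 (WBGene00002258), which overlaps mec-6, had 169.9, 202, 189, 175 and 176.1 CPM at 400 mM, against 152, 170.0, 136, 117 and 124 CPM at 0 mM (log2 fold change 0.40 ± 0.0544 SE, edgeR adjusted p = 9.37e-05). Another member, lbp-5, was at 8.93 ± 0.697 CPM at 400 mM and 5.63 ± 0.500 CPM at 0 mM (SD, n = 5 each; log2 fold change 0.66 ± 0.116 SE, edgeR adjusted p = 0.000924).

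Of 63 genes for the activation and beta-oxidation of fatty acids, 7 rose (11.1%) and 10 fell (15.9%), against 5.87% and 4.68% over all genes. Without the pairing, 4 rose and 3 fell. The median was 0.00. Without replicate 3, 4 or 5, 4 genes of this list rose, and without replicate 1, 6 fell. Peroxisomal enzymes were among those that fell. The acyl-CoA oxidase gene acox-3 (WBGene00019060) had 16.6, 18.0, 13.9, 15.3 and 14.6 CPM at 400 mM, against 21.05, 22.5, 19.8, 18.3 and 18.9 CPM at 0 mM, and although the groups did not overlap, its adjusted p was 0.104 without the pairing (log2 fold change −0.36 ± 0.0621 SE, edgeR adjusted p = 0.000787 with it). The hydratase gene maoc-1 (WBGene00017123), which overlaps E04F6.6, was at 26.2, 31.1, 31.9, 28.2 and 28.1 CPM at 400 mM, against 37.8, 38.2, 36.3, 31.9 and 34.04 CPM at 0 mM (log2 fold change −0.29 ± 0.0595 SE, edgeR adjusted p = 0.00347). For acox-1.1, an oxidase of pheromone synthesis, the values were 31.5 ± 2.09 CPM at 400 mM and 38.4 ± 3.48 CPM at 0 mM (SD, n = 5 each; log2 fold change −0.28 ± 0.0598 SE, edgeR adjusted p = 0.0044).

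Worms can degrade propionate through a route without vitamin B12, of which acdh-1 is on that list. The first enzyme of this route, acdh-1 (WBGene00016943), was at 864, 886, 940.3, 763 and 883 CPM at 400 mM, against 673, 744, 681, 590.1 and 635 CPM at 0 mM, without overlap (log2 fold change 0.39 ± 0.0579 SE, edgeR adjusted p = 0.000209). The dehydrogenase gene hacd-1 (WBGene00019978), also on the list of beta-oxidation, was highest in replicate 3 of both groups, with 66.5, 73.1, 107, 64.4 and 73.2 CPM at 400 mM, against 45.4, 57.6, 62.02, 33.9 and 35.4 CPM at 0 mM (log2 fold change 0.73 ± 0.0812 SE, edgeR adjusted p = 9.90e-06). In the list of 17 genes for propionate and methionine metabolism, which shares acdh-1 with the list of beta-oxidation, 7 rose and 1 fell (4 and 0 without the pairing, and 4 rose without replicate 3 or 5). The propionyl-CoA carboxylase subunits, of the vitamin B12-dependent route, were both higher. For pccb-1 (WBGene00018701), which overlaps wrt-2, the levels were 264, 266, 288, 282 and 305 CPM at 400 mM, against 219.9, 219, 211, 212 and 229 CPM at 0 mM (log2 fold change 0.37 ± 0.0397 SE, edgeR adjusted p = 7.87e-06). The other subunit, pcca-1, had 219 ± 8.93 CPM at 400 mM and 193 ± 10.9 CPM at 0 mM (SD, n = 5 each; log2 fold change 0.18 ± 0.0376 SE, edgeR adjusted p = 0.00428).

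The enzymes that oxidize ethanol itself showed no call at 6 h. Of the 5 tested genes for ethanol oxidation and acetate activation, none passed the test in edgeR with or without the pairing, 1 had an unadjusted p under 0.05, and DESeq2 called none. In edgeR, 1 rose in the paired fit of the 10 libraries at 6 h alone, without a filter on low counts, with a mean of at least 10 counts and without ribosomal RNA genes. The alcohol dehydrogenase gene adh-1 (WBGene00010790, chromosome V, 11888248 to 11889650), which overlaps sodh-2, had 5.49, 9.29, 18.6, 6.19 and 14.8 CPM at 400 mM, against 9.05, 12.5, 13.8, 9.04 and 9.28 CPM at 0 mM. The spread at 400 mM was wide and the groups overlapped (log2 fold change −0.04 ± 0.179 SE, edgeR adjusted p = 0.93). Its log2 fold change was 2.57 immediately after exposure. The difference between the times passed the test of the interaction (edgeR adjusted p = 5.52e-07). Of 11 other aldehyde dehydrogenases, 5 rose and 2 fell (2 and 0 without the pairing). Without replicate 4 or 5, 1 rose, and without replicate 3, 3 rose. Among them were alh-12 (WBGene00000118), with 35.4, 35.7, 42.7, 35.8 and 41.5 CPM at 400 mM, against 32.3, 31.8, 34.3, 29.4 and 28.02 CPM at 0 mM (log2 fold change 0.30 ± 0.0641 SE, edgeR adjusted p = 0.00524; 0.0504 without replicate 5), and alh-9, with 125 ± 12.1 CPM at 400 mM and 145 ± 9.46 CPM at 0 mM (SD, n = 5 each; log2 fold change −0.22 ± 0.0391 SE, edgeR adjusted p = 0.00122; 0.149 without the pairing). In sugar metabolism, the gluconeogenic enzyme gene pck-2 (WBGene00011232, overlapping R11A5.6 and suro-1) was at 606 ± 50.4 CPM at 400 mM and 507 ± 24.6 CPM at 0 mM and the trehalase gene tre-2 at 88.9 ± 6.11 CPM at 400 mM and 70.5 ± 2.35 CPM at 0 mM (SD, n = 5 each). Both rose, by 0.25 and 0.33 in log2 fold change (edgeR adjusted p = 0.00102 and 0.000164).

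Enzymes that modify foreign compounds held calls in both directions. Of 63 cytochrome P450 genes, 2 rose (3.17%) and 5 fell (7.94%), against 5.87% and 4.68% over all genes. Without the pairing, 0 rose and 3 fell, and 3 fell without replicate 4. The gene cyp-35A2 (WBGene00015400), of a group that is induced by xenobiotics, fell to 6.08, 8.41, 5.26, 7.73 and 5.93 CPM at 400 mM, against 17.1, 16.4, 7.95, 8.18 and 10.2 CPM at 0 mM. Replicates 1 and 2 at 0 mM were highest, replicate 4 differed little, and the groups overlapped (log2 fold change −0.80 ± 0.129 SE, edgeR adjusted p = 0.000452). Its relative cyp-35A3 was low, with 0.201 ± 0.0721 CPM at 400 mM and 0.659 ± 0.222 CPM at 0 mM (SD, n = 5 each; log2 fold change −1.68 ± 0.326 SE, edgeR adjusted p = 0.00216). The level of cyp-14A5 was 3.46 ± 0.945 CPM at 400 mM and 6.15 ± 0.515 CPM at 0 mM (SD, n = 5 each; log2 fold change −0.85 ± 0.1501 SE, edgeR adjusted p = 0.00101).

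Of 62 UDP-glucuronosyltransferases, 5 rose (8.06%) and 6 fell (9.68%), or 3 and 1 without the pairing. The shares over all genes were 5.87% and 4.68% with the pairing. The number that rose was 2 to 4 and the number that fell 2 to 7 with a pair left out; 2 rose without replicate 4 and 2 fell without replicate 5. The level of ugt-21 (WBGene00007885) was 1.98, 2.22, 2.21, 1.55 and 1.88 CPM at 400 mM, against 3.50, 6.16, 3.41, 5.80 and 5.82 CPM at 0 mM, without overlap (log2 fold change −1.31 ± 0.170 SE, edgeR adjusted p = 4.82e-05). In the opposite direction, ugt-6 (WBGene00013904) was at 5.78, 4.497, 3.44, 6.19 and 6.35 CPM at 400 mM, against 1.63, 2.40, 2.27, 1.53 and 2.24 CPM at 0 mM, again without overlap (log2 fold change 1.37 ± 0.193 SE, edgeR adjusted p = 0.000119). For ugt-19, the values were 12.4, 17.1, 9.64, 3.53 and 4.93 CPM at 400 mM, against 13.5, 20.4, 10.9, 18.7 and 23.4 CPM at 0 mM, with a larger difference in replicates 4 and 5 than in the others (log2 fold change −0.97 ± 0.272 SE, edgeR adjusted p = 0.028; 0.237 without the pairing, 0.126 without replicate 4 and 0.155 without replicate 5). The metallothionein gene mtl-2 had 35.5 ± 8.06 CPM at 400 mM and 25.6 ± 8.23 CPM at 0 mM (SD, n = 5 each; log2 fold change 0.50 ± 0.0898 SE, edgeR adjusted p = 0.00118; 0.243 without the pairing).

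The list with the most falls holds the subunits of the proteasome, the complex that degrades proteins marked with ubiquitin. Of its 33 tested subunits, 25 fell and none rose (16 and 0 without the pairing), and all 33 had a negative log2 fold change, with a median of −0.16. The called values ran from −0.23 to −0.11. Their sum was 8798, 8793, 8496, 9045 and 8442 CPM at 400 mM, against 9752, 9516, 9566, 9806 and 9733 CPM at 0 mM. Every library at 400 mM was below every library at 0 mM. The lid subunit gene rpn-3 (WBGene00004460) was at 393, 374, 362, 397 and 378 CPM at 400 mM, against 453, 423, 440.1, 461 and 448 CPM at 0 mM (log2 fold change −0.23 ± 0.0311 SE, edgeR adjusted p = 9.40e-05). The ATPase subunit gene rpt-4 (WBGene00004504), which overlaps nfyc-1 and rpoa-49, was at 286, 266, 264, 288 and 265 CPM at 400 mM, against 337, 303, 309.9, 329 and 326 CPM at 0 mM (log2 fold change −0.23 ± 0.0344 SE, edgeR adjusted p = 0.000197). With a pair left out, between 14 and 23 subunits fell, with 14 without replicate 5 and 15 without replicate 3.

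Falls of similar size were found in genes of protein synthesis. Of 29 translation factors, 14 fell and 2 rose (10 and 2 without the pairing), with a median of −0.11. Without replicate 5, 8 fell, and without replicate 3, 9 fell. The germline copy of initiation factor 5A, iff-1 (WBGene00002064), had 589, 644, 606, 690.5 and 624 CPM at 400 mM, against 719.7, 716, 757, 775 and 757 CPM at 0 mM (log2 fold change −0.24 ± 0.0425 SE, edgeR adjusted p = 0.000971). The ribosome maturation factor eif-6 (overlapping gale-1) was at 99.1 ± 1.48 CPM at 400 mM and 115 ± 3.27 CPM at 0 mM and eif-3.C at 439 ± 33.0 CPM at 400 mM and 493 ± 13.1 CPM at 0 mM (SD, n = 5 each), with log2 fold changes of −0.21 and −0.17 (edgeR adjusted p = 0.000997 and 0.00247). The call of eif-3.C was lost with a block shared by both harvest times and at 6 h alone without the pairing, with edgeR adjusted p of 0.0515 and 0.0593. A copy of elongation factor 1A, eef-1A.2 (WBGene00001169), went the other way, with 281, 257, 234, 298 and 332 CPM at 400 mM, against 214, 213, 182.3, 210.2 and 245 CPM at 0 mM (log2 fold change 0.39 ± 0.0504 SE, edgeR adjusted p = 4.37e-05).

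The enzymes that load tRNAs with amino acids fell in 14 of 31 cases and rose in none (9 and 0 without the pairing), with a median of −0.12. Without replicate 3 or 5, 7 fell, and without replicate 4, 9 fell. The phenylalanine enzyme subunit gene fars-1 (WBGene00001497, chromosome I, 6211981 to 6214685), which overlaps T08B2.15, was at 187, 184, 178, 188 and 179 CPM at 400 mM, against 221, 204, 215, 225 and 221 CPM at 0 mM (log2 fold change −0.25 ± 0.0338 SE, edgeR adjusted p = 9.12e-05). The proline enzyme gene pars-1 (WBGene00004189) was at 247, 219, 225, 245 and 235.5 CPM at 400 mM, against 277, 258, 289.7, 292 and 278 CPM at 0 mM (log2 fold change −0.25 ± 0.0411 SE, edgeR adjusted p = 0.000466). In both genes the groups did not overlap.

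Proteins of the mitochondrial ribosome were lower in 13 of 68 cases and higher in none (8 and 0 without the pairing, and 6 fell without replicate 3 or 5), among them mrps-22 (WBGene00007564) with 51.7 ± 2.30 CPM at 400 mM and 63.7 ± 2.37 CPM at 0 mM (SD, n = 5 each; log2 fold change −0.30 ± 0.0416 SE, edgeR adjusted p = 9.32e-05). Of 83 proteins of the cytosolic ribosome, 22 fell and 2 rose, but 1 fell and 1 rose without the pairing. For rpl-15 the level was 1288 ± 62.1 CPM at 400 mM and 1460.0 ± 59.5 CPM at 0 mM (SD, n = 5 each; log2 fold change −0.18 ± 0.0363 SE, edgeR adjusted p = 0.00294; 0.0511 without the pairing). The gene rpl-25.1 (WBGene00004438) was 1 of the 2 that rose, with 86.8, 84.4, 78.3, 83.0 and 91.5 CPM at 400 mM, against 64.5, 74.3, 68.4, 58.8 and 75.2 CPM at 0 mM (log2 fold change 0.32 ± 0.0528 SE, edgeR adjusted p = 0.00059). Without replicate 3 or 5, 7 cytosolic ribosomal genes fell.

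Constitutive chaperones, which fold new proteins, fell in 8 of 48 cases (16.7%) and rose in 1 (2.08%), against 4.68% and 5.87% over all genes. Without the pairing 2 fell and 1 rose, and 4 fell without replicate 3, 4 or 5. The chaperonin subunit gene cct-1 (overlapping T05C12.8) had 552 ± 20.9 CPM at 400 mM and 636 ± 27.5 CPM at 0 mM and the mitochondrial chaperonin gene hsp-60 387 ± 18.4 CPM at 400 mM and 451 ± 22.9 CPM at 0 mM (SD, n = 5 each). Their log2 fold changes were −0.21 and −0.22 (edgeR adjusted p = 0.000383 and 0.000459). Small heat shock proteins, which hold unfolded proteins, differed from these. The gene sip-1 (WBGene00004798), a family member of oocytes and embryos, was at 1203, 1416, 1096, 1369 and 1205 CPM at 400 mM, against 855, 884, 788, 802 and 837 CPM at 0 mM (log2 fold change 0.59 ± 0.0591 SE, edgeR adjusted p = 3.25e-06), and hsp-43 (WBGene00002024) at 44.6, 54.3, 52.9, 60.3 and 63.04 CPM at 400 mM, against 34.3, 37.5, 34.2, 35.5 and 40.4 CPM at 0 mM (log2 fold change 0.59 ± 0.0554 SE, edgeR adjusted p = 1.48e-06). Both were higher at 400 mM without overlap. They were 2 of 14 tested genes of small heat shock and inducible Hsp70 proteins, and the others had no call.

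**Figure D4:**
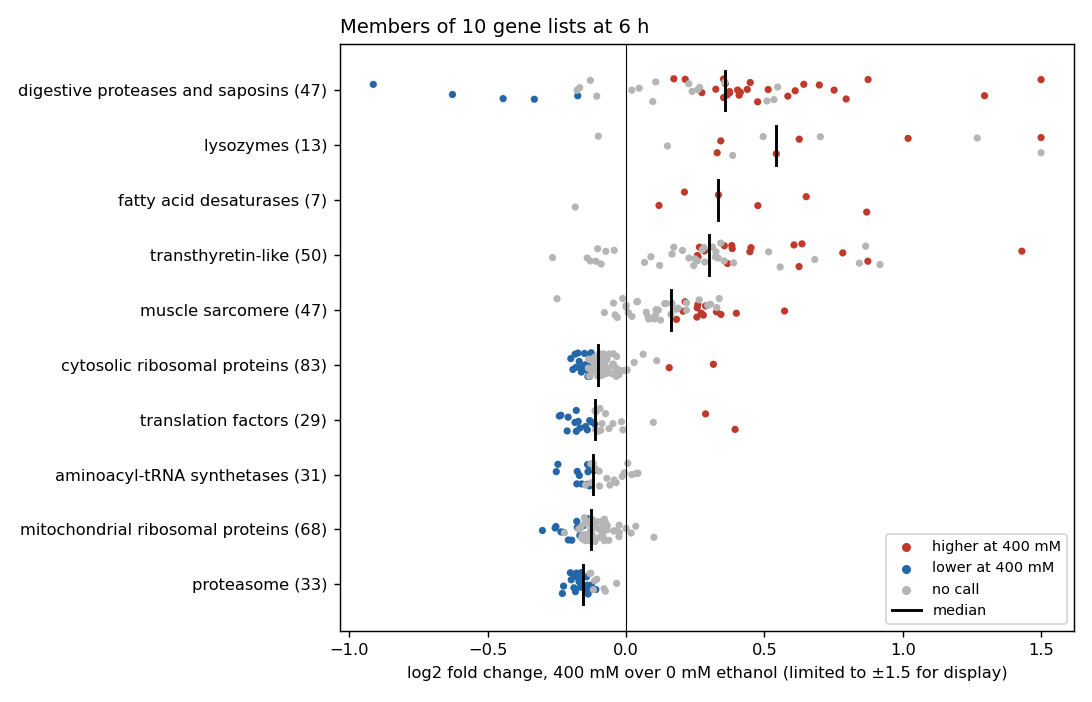
Each point is the log2 fold change, 400 mM over 0 mM, of 1 member of the 10 lists named on the y axis, with values past the end of the axis drawn at its edge, and black bars mark the medians. The median is 0.36 for digestive proteases and saposins, 0.54 for lysozymes and −0.16 for the proteasome, whose 33 members all lie left of zero.

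Some germline genes fell by similar amounts. Of 68 regulators of germline RNA and meiosis, 10 fell and none rose (4 and 0 without the pairing, and 4 fell without replicate 3 and 5 without replicate 5), with a median of −0.07. The translational repressor gene gld-1 (WBGene00001595) had 1118, 988, 979, 1062 and 1007 CPM at 400 mM, against 1161, 1103, 1163, 1176 and 1143 CPM at 0 mM (log2 fold change −0.16 ± 0.0317 SE, edgeR adjusted p = 0.00285). Summed germline markers, 10 genes that are also on this list, were at 3606 to 4179 CPM at 400 mM (median 3757), against 3938 to 4199 CPM at 0 mM (median 4146), and the ranges overlapped. The sum was lower at 400 mM in all 5 pairs, and 3 of the 10 genes fell and none rose (2 and 0 without the pairing). For 10 markers of oocytes, the sums were 15871 to 18293 CPM at 400 mM (median 17379) and 16661 to 17608 CPM at 0 mM (median 16965). Of these 10, 2 rose and none fell, both with the pairing and without it. The part of these summed levels in the falls of translation and proteasome genes was not tested.

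Genes for major sperm proteins showed 19 falls and no rise among 27 tested, but this rested on 1 library. Their sum was 2.78, 1.75, 5.95, 2.10 and 3.38 CPM at 400 mM, against 1.09, 0.997, 6.17, 2.99 and 86.9 CPM at 0 mM. The last value belongs to replicate 5. Without replicate 5, none of the 27 was called in the edgeR test, 1 had an unadjusted p under 0.05, and the median log2 fold change was −0.03, against −2.50 with it. Without the pairing none was called in edgeR, although 20 had an unadjusted p under 0.05, and DESeq2 called 8. Among 47 other sperm genes, 7 fell and 1 rose in edgeR. Without replicate 5, none of these fell and 2 rose.

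More structural genes of muscle and skin rose than fell, with few calls without the pairing. Of 47 genes for the muscle sarcomere, 13 rose and none fell, but 1 rose without the pairing, 6 without replicate 3 and 7 without replicate 5, and the median was 0.16. The troponin I gene tni-1 (WBGene00006584) had 12.8, 13.4, 16.4, 15.2 and 18.5 CPM at 400 mM, against 10.1, 9.62, 10.9, 8.97 and 11.6 CPM at 0 mM, without overlap (log2 fold change 0.57 ± 0.107 SE, edgeR adjusted p = 0.00153). For the calponin-related gene cpn-3 (WBGene00000779), the levels were 139, 165, 213, 148 and 189 CPM at 400 mM, against 128, 132, 151, 121 and 144 CPM at 0 mM. Replicates 3 and 5 were highest in both groups, and the groups overlapped (log2 fold change 0.33 ± 0.0515 SE, edgeR adjusted p = 0.000334; 0.15 without the pairing). The sum over 10 markers of body wall muscle, most of them also on the sarcomere list, ran from 2556 to 4326 CPM at 400 mM (median 2945) and from 2508 to 3314 CPM at 0 mM (median 2998). The sum was lower at 400 mM in replicate 2. Cuticle collagens, 120 tested, rose in 16 cases (13.3%) and fell in 2 (1.67%), against 5.87% and 4.68% over all genes. They rose in 1 and fell in 2 without the pairing, and rose in 10 without replicate 3.

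Transthyretin-like proteins, a large nematode family of small secreted proteins, rose in 16 of 50 cases and fell in none (9 and 0 without the pairing), with a median of 0.30. Without replicate 5, 9 rose, and without replicate 3 or 4, 10 rose. The level of ttr-51 (WBGene00010440), which overlaps JC8.7, was 99.8 ± 8.49 CPM at 400 mM and 73.1 ± 2.199 CPM at 0 mM (SD, n = 5 each; log2 fold change 0.45 ± 0.0456 SE, edgeR adjusted p = 3.94e-06). Another member, ttr-45 (WBGene00044737), had 39.2, 44.9, 48.3, 47.3 and 47.7 CPM at 400 mM, against 31.7, 30.6, 35.1, 33.1 and 35.8 CPM at 0 mM (log2 fold change 0.45 ± 0.0521 SE, edgeR adjusted p = 1.47e-05). For ttr-18 (WBGene00007142), the values were 22.8, 22.9, 27.3, 26.2 and 33.5 CPM at 400 mM, against 15.98, 16.4, 16.96, 15.9 and 19.9 CPM at 0 mM, with replicate 5 highest in both groups (log2 fold change 0.64 ± 0.0868 SE, edgeR adjusted p = 8.74e-05). None of these genes had overlapping groups.

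Calls in genes of the nervous system are given beside the shares over all genes, 5.87% higher and 4.68% lower. Of 88 neuropeptide genes, 4 rose (4.55%) and none fell, or 1 and 0 without the pairing. Without replicate 3, 4 or 5, 2 rose. The median was 0.24, or 0.14 without replicate 3. Of 24 genes of synaptic transmission, 2 rose (8.33%) and 1 fell (4.17%), or 1 and 1 without the pairing. Of 9 neuron markers, 8 had a positive log2 fold change, with a median of 0.23. Their sum was 212 to 285 CPM at 400 mM (median 251), against 218 to 248 CPM at 0 mM (median 234.9), and it was higher at 400 mM in 4 of 5 pairs. The part of this level in the rises of neuropeptide genes was not tested. The gene nlp-40 (WBGene00022276), whose peptide is released by the intestine to pace defecation, had 117, 139, 126.2, 119.1 and 118.8 CPM at 400 mM, against 94.1, 99.4, 94.6, 79.4 and 82.5 CPM at 0 mM (log2 fold change 0.47 ± 0.0426 SE, edgeR adjusted p = 1.03e-06). The level of flp-18 (WBGene00001461), which encodes ligands of the receptor NPR-1, was 5.05, 5.90, 10.2, 5.19 and 9.98 CPM at 400 mM, against 4.10, 4.63, 6.24, 3.60 and 6.65 CPM at 0 mM. It was higher at 400 mM in each pair, but the groups overlapped (log2 fold change 0.51 ± 0.128 SE, edgeR adjusted p = 0.015; 0.213 without the pairing, 0.0802 without replicate 3 and 0.0714 without replicate 5). The receptor gene npr-1 itself had 0, 1, 1, 2 and 3 counts at 400 mM, against 1, 1, 2, 0 and 0 at 0 mM, which is at the limit of detection.

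The genes swsn-9 and jmjc-1, which the study examined, and slo-1 showed no call at 6 h. The potassium channel gene slo-1 (WBGene00004830, chromosome V, 18492261 to 18508212), a target of ethanol in worm neurons, had 2.56, 2.69, 4.57, 3.31 and 4.43 CPM at 400 mM, against 2.59, 3.58, 2.55, 2.198 and 2.69 CPM at 0 mM. The groups overlapped, and 3 of 5 pairs were higher at 400 mM (log2 fold change 0.36 ± 0.201 SE, edgeR adjusted p = 0.289). The chromatin remodeling subunit gene swsn-9 (WBGene00007256, chromosome I, 7224656 to 7227765) was at 203, 199, 193, 205 and 194 CPM at 400 mM, against 208, 194, 199.7, 207.3 and 197 CPM at 0 mM, within the spread of the replicates (log2 fold change −0.02 ± 0.0366 SE, edgeR adjusted p = 0.815). For the demethylase gene jmjc-1 (WBGene00020902, chromosome I, 3631091 to 3636485), which overlaps cah-6, the levels were 9.23, 6.19, 7.28, 8.62 and 9.94 CPM at 400 mM, against 8.75, 8.50, 5.75, 8.73 and 5.89 CPM at 0 mM (log2 fold change 0.14 ± 0.145 SE, edgeR adjusted p = 0.613). None of 13 tested subunits of SWI/SNF complexes passed the edgeR test with or without the pairing, 4 had an unadjusted p under 0.05, and DESeq2 called none.

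The effect at 6 h was set against that at harvest immediately after exposure with an interaction of ethanol and time. It passed the edgeR test in 1619 genes, 10.2% of those tested, and in 614 of the 1679 genes called at 6 h. The latter were chosen by an effect that is part of the interaction, so these shares are not comparable. Of the genes that rose at 6 h, 309 had been called as higher at 400 mM immediately after exposure, 506 were without a call, and the rest had been called as lower. Of those that fell at 6 h, 64 had been called as higher, 201 as lower and 480 were without a call. The interaction was past the threshold in each gene called in opposite directions at both times. Such genes were chosen by opposite effects, whose difference is the interaction, so this outcome was largely fixed by the choice. Both times have their own controls, so these contrasts share no library.

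Genes that changed direction came from several groups. The proteolytic gene pcp-3 had a log2 fold change of −1.48 immediately after exposure and 0.80 at 6 h (interaction, edgeR adjusted p = 3.06e-10). The propionate gene acdh-1 was at −0.74 immediately and 0.39 at 6 h (interaction, edgeR adjusted p = 3.04e-08). In the other direction, acox-3 was at 1.42 immediately and −0.36 at 6 h, maoc-1 at 1.33 and −0.29, and F58B4.5 at 1.20 and −1.38. The corresponding adjusted p of the interaction in edgeR was 1.22e-10 for acox-3, 2.74e-10 for maoc-1 and 5.43e-08 for F58B4.5. For dod-24, the fall was −3.04 immediately and −0.73 at 6 h (interaction, edgeR adjusted p = 2.99e-06). The proteasome list had a median of 0.02 immediately and −0.16 at 6 h. The interaction was past the threshold in 17 of the 25 subunits that fell at 6 h, against 36.6% of all genes called at 6 h. Both sets were chosen by the effect at 6 h, which is part of the interaction.

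**Figure D5:**
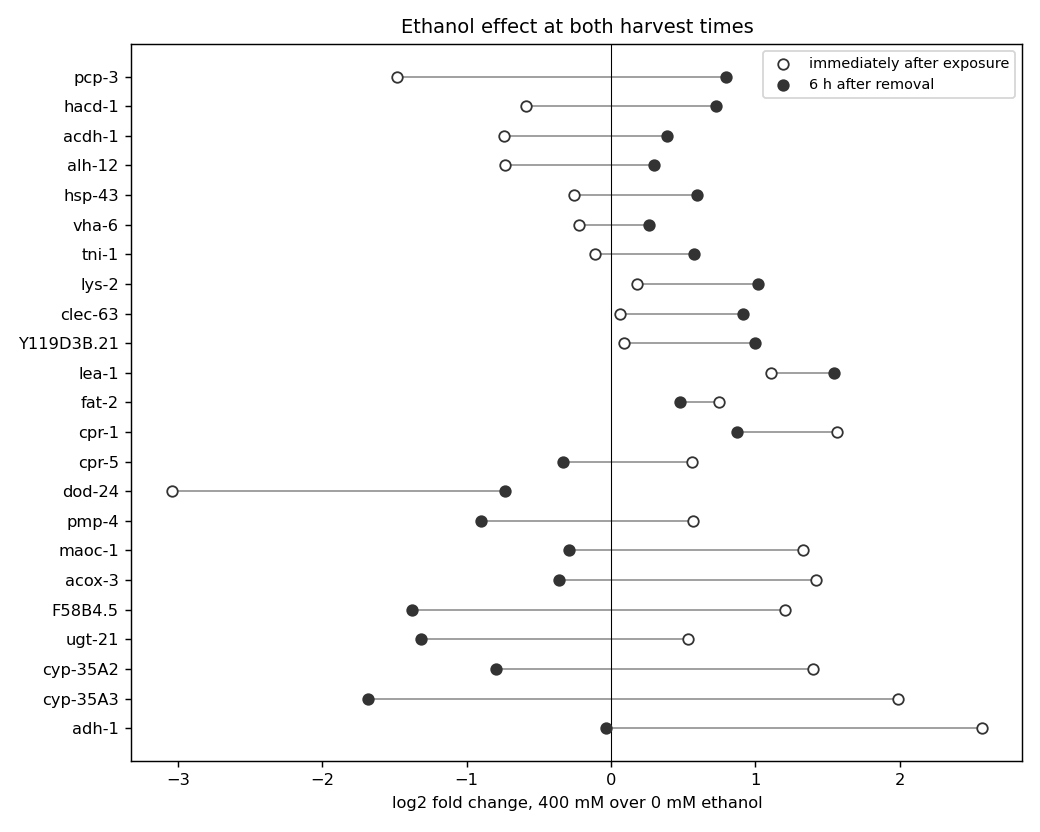
Log2 fold change, 400 mM over 0 mM, of 23 genes immediately after exposure (open) and 6 h after removal (filled), each joined by a line. From pcp-3 to tni-1 the points cross from negative values to positive ones, and cpr-5 and the genes from pmp-4 to cyp-35A3 cross the other way.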

How the data were processed

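The authors deposited raw counts per gene, made with STAR 2.6.0a from paired reads of poly(A) RNA. Reads aligned to several places were not counted, so near-identical genes are undercounted. The strand setting and the annotation release are not given in the sources used here. Gene names and coordinates are those of WBcel235.

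The counts of the 20 wild-type libraries were fitted with edgeR 4.0.16 (TMM scaling, quasi-likelihood test, Benjamini-Hochberg adjustment), with 10 blocks for harvest time and replicate number. The 15923 genes with a mean of at least 1 count over the 10 libraries at 6 h were tested at an adjusted p of 0.05. Replicates were collected on different days with both ethanol groups in parallel. Libraries with the same number correlated (0.31 to 0.64) and those with different numbers less (−0.42 to 0.26). SE is the standard error of a log2 fold change. The steps were tested on simulated data.

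Named genes were those with the smallest p and the largest fold per direction, the leading members of each list, and genes central to the study. Those taken by p or fold had to pass the test with and without the pairing. They also had to change in the same direction in all pairs and reach a minimum mean level. The genes asp-3, asp-4, spp-3 and lys-2 were added after their values were seen. The genes, lists and families were chosen with earlier results of these data known. Alternatives were other scalings, filters, DESeq2 1.42.0, other blocks and leaving out each pair.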

Additional observations from a re-analysis of the deposited data

Results flagged for a closer look

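In 6 of 198 groups of 5 libraries of the named genes, 1 library lay far from the other 4 by Dixon's criterion, which chance meets in about 1 in 20 groups. At 400 mM these were replicate 3 of lea-1 (834 CPM), replicate 3 of hacd-1 (107 CPM) and replicate 5 of tre-2 (99.5 CPM). At 0 mM they were replicate 3 of pcp-3 (31.3 CPM), replicate 5 of ttr-18 (19.9 CPM) and replicate 3 of hsp-60 (491 CPM).

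The ethanol effect at 6 h differed from that immediately after exposure in 58 of the 99 named genes, by the interaction test in edgeR. Most named genes were chosen by their effect at 6 h, which is part of that interaction. Their share is therefore not comparable with the 10.2% over all genes tested. Differences of the 2 log2 fold changes were taken as 6 h minus immediately. Among genes of digestion and defense, cpr-5 and cpr-1 had negative differences, listed below. In dod-24 and asp-14, which fell at 6 h, a positive difference means a smaller fall than immediately. The other genes of digestion and defense listed here also had positive differences. They were 2.31 in dod-24, 2.28 in pcp-3, 1.57 in asp-14, 0.94 in clec-62, 0.85 in clec-63, 0.89 in asp-17, 0.84 in irg-8, 0.84 in lys-2, 0.60 in spp-3, 0.46 in lys-1, 0.43 in lys-4, 0.34 in asp-3 and 0.30 in asp-4. In metabolism and detoxification they were 1.32 in hacd-1, 1.13 in acdh-1, 1.03 in alh-12, 1.02 in ugt-6, 0.47 in tre-2, 0.44 in ftn-2 and 0.44 in lea-1. In the other genes they were 2.93 in T19C9.8, 0.95 in jmjc-1, 0.91 in Y119D3B.21, 0.85 in hsp-43, 0.78 in F53A9.8, 0.68 in tni-1, 0.48 in vha-6, 0.48 in ttr-18, 0.47 in cpn-3, 0.32 in rpl-25.1, 0.31 in eef-1A.2, 0.25 in vit-2, 0.25 in vit-6 and 0.25 in nlp-40.

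Negative differences were −3.67 in cyp-35A3, −2.61 in adh-1, −2.58 in F58B4.5, −2.19 in cyp-35A2, −1.85 in ugt-21, −1.81 in ugt-19, −1.78 in acox-3, −1.62 in maoc-1, −1.47 in pmp-4, −1.40 in F19B2.5, −0.89 in cpr-5, −0.88 in cyp-14A5, −0.86 in acox-1.1, −0.71 in fat-5, −0.69 in cpr-1, −0.51 in K10C2.8, −0.50 in mtl-2, −0.43 in T26A8.4, −0.38 in pck-2, −0.31 in fat-1, −0.27 in fat-2, −0.27 in rpt-4, −0.25 in fars-1 and −0.21 in rpn-3.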

How the results depend on the processing

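Of the choices tried, the handling of the replicate block moved the counts most. Without it, 722 genes were called against 1679, with 429 higher and 293 lower at 400 mM, and 213 members of the gene lists were called against 486. A block shared by both harvest times gave 642 genes, 400 higher and 242 lower. The 10 libraries at 6 h alone gave 800 genes without the block, 543 higher and 257 lower, and 1820 with it. DESeq2 without the block gave 1110 genes, of which 601 were higher. With a pair left out, 887 to 1365 genes were called, with 574 to 796 higher and 313 to 569 lower, and 263 to 425 list members, lowest without replicate 5. The interaction was past the threshold in 904 genes without the block, against 1619, and in 1200 to 1450 with a pair left out. Other scalings, filters on low counts, DESeq2 with the block and the removal of ribosomal RNA genes, added after seeing the data, kept the count of genes within 1.5 times.

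Of the 94 named genes that were called, 68 were called under all alternatives and none changed direction under any of them. Genes named by p or fold had been required to pass without the block and to change in the same direction in all pairs. For these genes, part of that outcome was fixed by the choice. With the shared block, the edgeR adjusted p was 0.0506 for irg-7, 0.0526 for pcca-1 and 0.0509 for tni-1, and at 6 h alone without the block it was 0.0505 for fat-7. Among those without a call, jmjc-1 had a log2 fold change of −0.019 without replicate 5 and 0.28 without replicate 2, the ends of its range. The log2 fold change of adh-1 was 0.052 without the block, 0.011 with the shared block, 0.054 at 6 h alone without the block and 0.022 in DESeq2 without the block, and −0.24 to 0.10 with a pair left out. Other scalings shifted the median of all genes by at most 0.0109.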

Other observations

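Of 2300 tested genes on the X chromosome, 205 rose at 400 mM (8.91%) and 25 fell (1.09%), with a median log2 fold change of 0.11. Of 2512 tested genes on chromosome I, 90 rose (3.58%) and 173 fell (6.89%). The difference between the chromosomes was not tested.

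The following families were chosen after their values were seen. Over all genes, 5.87% rose and 4.68% fell. Of 12 tested nspg genes, of a nematode-specific peptide family, 7 rose and none fell, with a median log2 fold change of 0.38. Of 12 tested galectin genes of the lec family, 5 rose and none fell, both with the pairing and without it. Of 28 tested math genes, 7 rose and none fell.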
